A study of Mus musculus with 15 samples.

Results

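Lesional skin of mice treated with a GZ21T cream was compared with lesional skin of mice treated with a placebo cream, 3 libraries in each group, 6 of the 15 libraries of the series. The members are all genes of the table that holds this comparison, kept where the symbol is unique and was not turned into a date by a spreadsheet, which left 24027 symbols of 24054 deposited rows. All groups are skin of female SKH1 mice, a hairless and otherwise unmodified strain used to study skin damage by ultraviolet light. Irradiation with ultraviolet B started at an age of 6 to 8 weeks, at 500 J/m2 on 5 days per week over 10 weeks, and raised actinic keratoses, which are early lesions of keratinocytes and can progress to squamous cell carcinoma. Mice received 0.25 g of cream on 5 days per week. The labels do not describe what GZ21T contains. Placebo mice also gave non-lesional irradiated skin and skin not exposed to ultraviolet light, 3 libraries each, which are used below for values side by side. Libraries are numbered 1 to 3 in the labels, which do not say whether a number stands for 1 animal. The p-values therefore describe the spread between these libraries, and that spread may be technical.

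The authors' deposited table gives, for each gene, a log2 fold change with its test and no value per library. The values of single libraries, their depth, the overlap between the groups and the number of libraries that show a change therefore cannot be given, and all errors below are the standard error (SE) of the authors' fit. Positive values mean higher under GZ21T throughout. The direction was checked on the 1003 genes listed at 0 in the table that sets placebo lesional skin over its reference, of which 253 were higher and 0 lower under GZ21T in the authors' deposited table. Skin was the labelled tissue, and its defining keratins were tested in the authors' deposited table, with Krt5 at -0.15 ± 0.36 and Krt14 at -0.25 ± 0.35 on the log2 scale, neither of them called.

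The epidermis renews itself from a basal layer of dividing keratinocytes. As cells move outward they stop dividing, exchange the keratins of the basal layer for Krt1 and Krt10, and finally build the cornified envelope, a shell of crosslinked proteins and lipids that forms the barrier of the skin. Many envelope proteins are encoded side by side in the epidermal differentiation complex of chromosome 3. In actinic keratoses this programme is disturbed, basal-type proliferation extends upward, and signals of wounding, inflammation and low oxygen are commonly active.

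The genes that rose under GZ21T included 11 neighbouring genes of the cornified envelope, Lor and Krt1. Those that fell included histone genes, genes induced by hypoxia, the metallothioneins Mt1 and Mt2, the cytokine Tslp and the cyclooxygenase Ptgs2. In the authors' deposited table, a total of 393 of 10899 tested genes, 3.61%, passed an adjusted p under 0.05 (DESeq2's Wald test with Benjamini-Hochberg adjustment), 143 higher (1.31%) and 250 lower (2.29%). Unadjusted p was under 0.05 for 2498 tested genes, 22.9%. The median log2 fold change was 1.01 among the genes called higher and -0.97 among those called lower, against -0.06 over all genes tested, and the median SE was 0.27. The split between the directions depended on the scaling. Centred on the median of all genes, the authors' deposited table gave 201 higher and 142 lower, and with a trend over transcript length removed 164 higher and 126 lower. The statistics of all genes were also 1.64 times as wide as the null distribution of the test, and with the null centre and spread taken from the genes 0 were called. All calls below are those of the authors' deposited table.

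**Figure D1:**
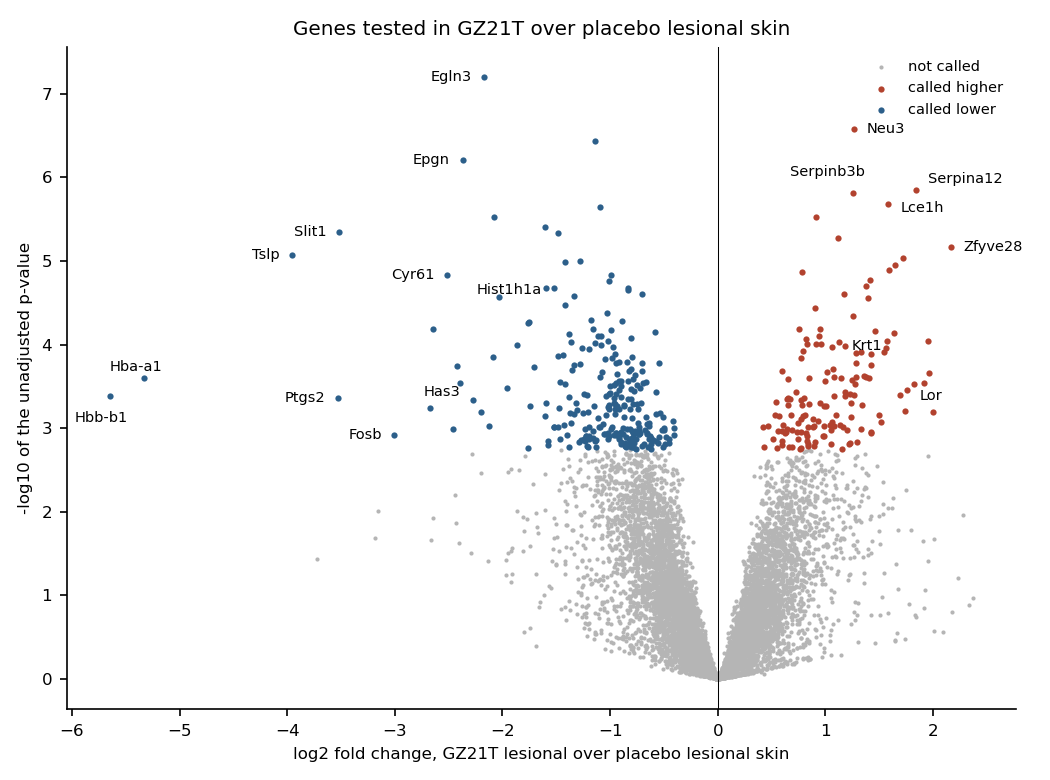
Log2 fold change of GZ21T over placebo lesional skin (horizontal) against the -log10 of the unadjusted p-value (vertical) for each tested gene, with genes called higher in red and lower in blue. Egln3, at -2.17, has the smallest p of the genes drawn, and Neu3, at 1.27, the smallest among those called higher. Hba-a2, whose log2 fold change is over 15 in size and was not taken as meaningful, is left out.

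The late cornified envelope genes of the Lce1 group carry the largest block of higher calls, so their promoters are shown before the values. RefSeq promoter windows on GRCm38.p6 were found for 13 of the 14 tested Lce1 genes. In 12 of these the letters ATAAAA, a variant of the TATA box searched on the strand of the gene and chosen after the sequences were seen, lie within the last 40 bases before the start site, against 715 of 32851 promoters (2.18%) in the whole table. The strict TATA box TATAAA, searched on both strands over 250 bases before the start, occurs in 2 of the 13 against 12.4% of all promoters. The last 100 bases before the start are shown for Lce1h, Lce1c and Lce1j, which were higher under GZ21T, for Lce1k, a neighbour that was not called, and for the envelope genes Lor and Hrnr of the same complex, which were higher. Capitals mark ATAAAA.
Lce1h, chr3:92765066-92765165, minus strand: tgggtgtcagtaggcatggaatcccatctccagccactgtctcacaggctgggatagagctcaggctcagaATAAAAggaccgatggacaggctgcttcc
Lce1c, chr3:92679147-92679246, plus strand: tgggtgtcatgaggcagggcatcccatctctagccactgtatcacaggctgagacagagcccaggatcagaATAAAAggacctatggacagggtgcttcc
Lce1j, chr3:92790515-92790614, minus strand: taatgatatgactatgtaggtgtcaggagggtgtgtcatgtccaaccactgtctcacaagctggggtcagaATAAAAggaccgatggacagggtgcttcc
Lce1k, chr3:92807892-92807991, minus strand: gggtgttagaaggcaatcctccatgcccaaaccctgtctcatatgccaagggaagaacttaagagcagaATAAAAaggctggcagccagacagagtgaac
Lor, chr3:92083143-92083242, minus strand: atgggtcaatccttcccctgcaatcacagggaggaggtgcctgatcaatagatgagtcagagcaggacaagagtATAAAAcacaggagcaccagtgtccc
Hrnr, chr3:93319649-93319748, plus strand: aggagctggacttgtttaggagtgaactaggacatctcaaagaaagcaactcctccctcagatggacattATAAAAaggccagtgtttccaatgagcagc
Compared base by base without gaps, aligned on ATAAAA where both hold it, the Lce1h window is 90% identical to that of Lce1g, 88% to Lce1c and 50% to Lce1j. The stretch around ATAAAA is shared by the first 3 sequences. The Lce1k window is 43.9% identical to that of Lce1h over 98 bases. That of Lce1b, which was called higher, is 44% identical to Lce1h over 100 bases. This identity therefore does not separate the called Lce1 genes from those not called. These are matches of letters and say nothing of which factors bind there.

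Cornified envelope genes were the list with the most higher calls. Of 40 genes listed 30 were tested, and a total of 15 rose and 0 fell by the authors' deposited table, 50% of those tested against 1.31% of all genes, with a median log2 fold change of 1.38. Of the 14 tested Lce1 genes 11 rose, all between 1.34 and 1.83 in the authors' deposited table. These 11 lie next to each other at chromosome 3, 92646535 to 92790514, of GRCm38. Lce1h, with the smallest p of the list, rose by 1.58 ± 0.33 (adjusted p = 0.0027), a fold of 2.99, in the authors' deposited table. Lce1c rose by 1.65 ± 0.37 (adjusted p = 0.0057) and Lce1j by 1.72 ± 0.39 (adjusted p = 0.0055) by the authors' deposited table. The remaining Lce1 members were of the same size with larger errors: Lce1k stood at 1.43 ± 0.66 (adjusted p = 0.17), Lce1l at 1.38 ± 0.49 (adjusted p = 0.076) and Lce1m at 1.50 ± 0.63 (adjusted p = 0.13) according to the authors' deposited table. Between 13.8% and 27.1% of the 50-base stretches of the 11 Lce1 genes that rose also occur in other genes, so the authors' counting could have moved some reads among them.

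Loricrin, Lor, the main protein of the envelope by mass, rose by 1.76 ± 0.49 (adjusted p = 0.026) per the authors' deposited table. Hornerin, Hrnr, a filaggrin-like protein of the cornified layer, rose by 1.56 ± 0.40 (adjusted p = 0.016) there. Casp14, the caspase that processes filaggrin, rose by 1.05 ± 0.32 (adjusted p = 0.041), and the desquamation protease Klk5 by 1.14 ± 0.34 (adjusted p = 0.041), by the authors' deposited table. Flg2 at 1.53 ± 0.58 (adjusted p = 0.090), Rptn at 1.17 ± 0.44 (adjusted p = 0.088) and involucrin, Ivl, at 1.16 ± 0.55 (adjusted p = 0.18) did not pass in the authors' deposited table. The crosslinking enzyme Tgm3 stood on the other side of 0, at -1.40 ± 0.53 (adjusted p = 0.090), according to the authors' deposited table. Filaggrin itself was not tested. The 6 Lce3 genes have no adjusted p, and all had negative fold changes, from -0.91 ± 1.12 for Lce3f to -2.94 ± 1.68 for Lce3b in the authors' deposited table. Without the authors' filter on low counts 13 of the list rose.

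The epidermal differentiation complex was then read gene by gene, from S100a1 to S100a10 at chromosome 3, 90511034 to 93564643, of GRCm38. It holds 69 annotated genes, of which 43 were tested. Against 1.31% of all genes called higher, a total of 15 rose here and 0 fell by the authors' deposited table. Besides the Lce1 genes, Lor and Hrnr, these were Kprp, a keratinocyte proline-rich protein, at 1.28 ± 0.35 (adjusted p = 0.023), and 2310050C09Rik at 1.64 ± 0.41 (adjusted p = 0.015) per the authors' deposited table. The small proline-rich proteins, which are envelope precursors made in large amounts by stressed epidermis, did not share this direction. All 8 tested Sprr genes had negative fold changes, with a median of -1.42, 0 called and 3 with an unadjusted p under 0.05 (DESeq2, the authors' deposited table). Sprr2d stood at -2.65 ± 1.05 (adjusted p = 0.11) and Sprr1b at -0.09 ± 0.58 (adjusted p = 0.96) by the authors' deposited table. Of 10 tested S100 genes, which encode calcium-binding proteins, 0 were called by DESeq2 and 4 had an unadjusted p under 0.05 in the authors' deposited table. The values of Sprr2a1 and Sprr2a2 are the same to the last digit, so they count as 1 measurement.

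**Figure D2:**
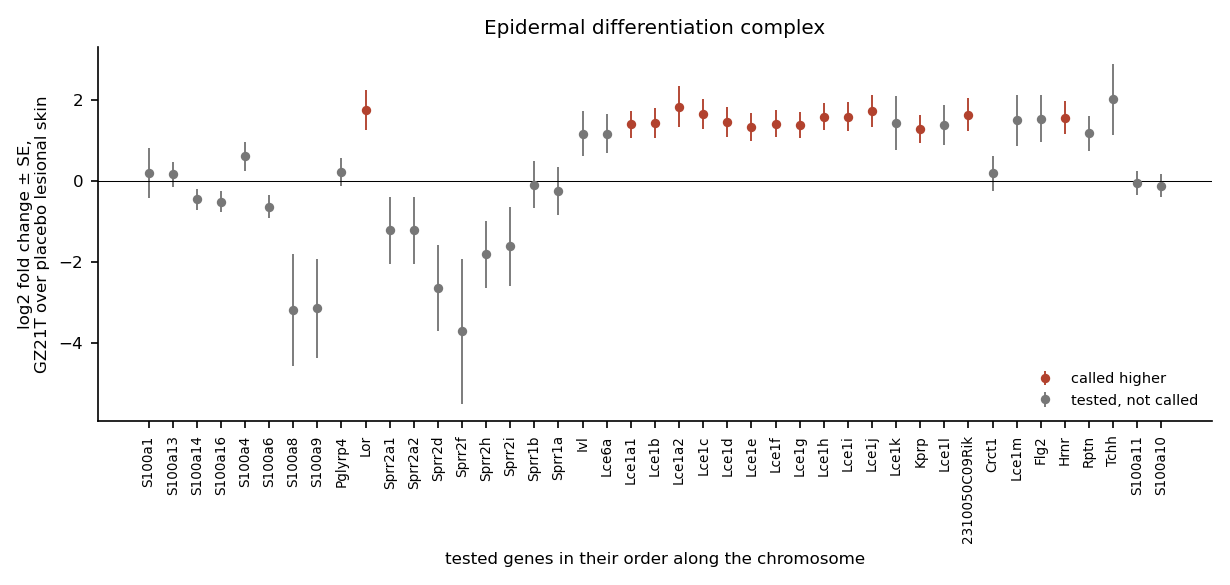
Log2 fold change of GZ21T over placebo lesional skin with its SE (vertical) for the 43 tested genes of the epidermal differentiation complex, in their order along chromosome 3. The 15 genes called higher, in red, are Lor, the run from Lce1a1 to Lce1j, Kprp, 2310050C09Rik and Hrnr, while all Sprr genes and the alarmins S100a8 and S100a9 lie below 0.

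Genes of the layers below the envelope gave fewer calls. Of 19 tested suprabasal genes 3 rose, 15.8% against 1.31% of all genes, and 0 fell by the authors' deposited table. Their median was 0.04. Krt1, the first keratin of cells that leave the basal layer, rose by 1.42 ± 0.38 (adjusted p = 0.019) according to the authors' deposited table. The desmosomal cadherin Dsg1a rose by 1.06 ± 0.27 (adjusted p = 0.016) and suprabasin, Sbsn, by 1.29 ± 0.34 (adjusted p = 0.019) per the authors' deposited table. Krt10, the partner of Krt1, stood at 1.27 ± 0.57 (adjusted p = 0.15) by the authors' deposited table. Another desmosomal cadherin moved the other way: Dsc2 fell by 2.08 ± 0.55 on the log2 scale (adjusted p = 0.018) according to the authors' deposited table. Of 16 basal keratinocyte genes 0 were called by DESeq2 and 4 had an unadjusted p under 0.05 in the authors' deposited table. Krt15, a keratin of stem cells with the smallest p of these, stood at 1.29 ± 0.46 (adjusted p = 0.076) there.

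Inhibitors of proteases were split in direction. The lists of clade B serpins and of Skint genes were chosen after their values were seen, so their shares are descriptions only. Of 12 tested clade B serpins 3 rose and 2 fell by the authors' deposited table, 41.7% called against 3.61% of all genes. Serpinb3b, a relative of the human squamous cell carcinoma antigens, rose by 1.25 ± 0.26 (adjusted p = 0.0024) per the authors' deposited table. Serpinb7 rose by 1.43 ± 0.44 (adjusted p = 0.042) and Serpinb12 by 1.34 ± 0.39 (adjusted p = 0.031) by the authors' deposited table. Serpinb2, the inhibitor of plasminogen activators, fell by 2.13 ± 0.64 (adjusted p = 0.041) according to the authors' deposited table, and Serpinb10, chosen after its value was seen, was the other member that fell. Without the authors' filter 2 serpins rose and 0 fell, and with the length trend removed 3 rose and 0 fell, so both lower calls ended under either alternative. Serpina12, which encodes the adipokine vaspin and is also made by epidermis, rose by 1.84 ± 0.38 (adjusted p = 0.0024) per the authors' deposited table. All 10 tested Skint genes, which encode butyrophilin-like proteins of mouse epidermis, had positive fold changes with a median of 1.03 in the authors' deposited table. Skint3 was the called member (10% against 3.61% of all genes), at 1.06 ± 0.32 (adjusted p = 0.041) by the authors' deposited table. That call ended without the filter.

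Among barrier lipid genes, Pnpla1 stood at 0.83 ± 0.28 (adjusted p = 0.061) and the lipoxygenase Aloxe3 at 1.07 ± 0.37 (adjusted p = 0.067) per the authors' deposited table, and neither passed. The ganglioside sialidase Neu3 had the smallest p among the genes that rose, at 1.27 ± 0.25 (adjusted p = 9.7e-04) by the authors' deposited table. The gene occupies chromosome 7, 99811439 to 99828417, minus strand, of GRCm38. Further leading genes that rose were Zfyve28, a FYVE-domain protein linked to the trafficking of the EGF receptor, at 2.16 ± 0.48 (adjusted p = 0.0046), and the membrane mucin Muc15 at 1.12 ± 0.25 (adjusted p = 0.0039) according to the authors' deposited table. Slc38a9, the lysosomal arginine sensor, rose by 0.92 ± 0.20 (adjusted p = 0.0030), and the methyltransferase-like Pcmtd1 by 0.78 ± 0.18 (adjusted p = 0.0064), per the authors' deposited table. By size of change the transporter Abca4 at 2.00 ± 0.59 (adjusted p = 0.034) and the heparan sulfate sulfotransferase Hs3st6 at 1.95 ± 0.50 (adjusted p = 0.016) followed in the authors' deposited table, and the call of Abca4 ended without the filter.

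Markers of wounded epidermis were not called. Of 12 tested stress keratin and alarmin genes DESeq2 called 0, and 5 had an unadjusted p under 0.05, with a median of -0.84 in the authors' deposited table. The alarmins S100a8 and S100a9, which are also made by neutrophils, stood at -3.19 ± 1.37 (adjusted p = 0.14) and -3.15 ± 1.22 (adjusted p = 0.099) by the authors' deposited table. The stress keratins Krt6a and Krt6b stood at -0.78 ± 0.51 and -0.48 ± 0.78, and Krt16 and Krt17 at 0.03 ± 0.45 and -0.29 ± 0.28, in the authors' deposited table. The SE of the alarmins lay far above the median of 0.27 over all genes tested.

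Genes of growth signalling and of its early output gave few calls, all lower. Epigen, Epgn, a ligand of the EGF receptor, fell by 2.37 ± 0.48 on the log2 scale (adjusted p = 0.0014) in the authors' deposited table. It was the only called member among 11 tested ligands and receptors of that family, 9.09% against 3.61% of all genes. Of the 11, 3 had positive and 8 negative fold changes. The ligands Tgfa at -1.28 ± 0.43 (adjusted p = 0.062) and Hbegf at -1.36 ± 0.56 (adjusted p = 0.13) did not pass, nor did Egfr itself at -0.30 ± 0.17 (adjusted p = 0.26), according to the authors' deposited table. The ligands Nrg1 and Btc, which have no adjusted p, lay on opposite sides of 0. They stood at -1.71 ± 0.62 (p = 0.0056) and 1.30 ± 0.53 (p = 0.013) by DESeq2 in the authors' deposited table. Of 27 genes of ERK feedback and output 1 was called, 3.70% against 3.61% of all genes: Ier3, an immediate early gene, at -2.03 ± 0.48 (adjusted p = 0.0081) per the authors' deposited table. Dusp6, the ERK phosphatase, stood at -0.99 ± 0.35 (adjusted p = 0.070) by the authors' deposited table. All 14 tested AP-1 and immediate early genes had negative fold changes, with a median of -0.71, in the authors' deposited table. Of the 14, 3 fell, 21.4% against 2.29% of all genes, and 1 turned positive when centred on the median. Fosl1 fell by 2.46 ± 0.75 (adjusted p = 0.041) and Fosb by 3.00 ± 0.93 (adjusted p = 0.042), both AP-1 subunits, and the zinc finger factor Klf6 by 0.94 ± 0.26 (adjusted p = 0.024), according to the authors' deposited table. The calls of Fosl1 and Fosb ended without the authors' filter. Cyr61, a matricellular protein and target of YAP and TAZ, fell by 2.51 ± 0.58 (adjusted p = 0.0065) per the authors' deposited table. Slit1, a secreted guidance protein, fell by 3.52 ± 0.77 (adjusted p = 0.0036) by the authors' deposited table.

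Among the inflammatory lists 2 genes were called, the cytokine Tslp and the cyclooxygenase Ptgs2. Tslp, an alarm cytokine that keratinocytes release and that drives type 2 inflammation, fell by 3.95 ± 0.89 (adjusted p = 0.0055), a fold of 15.5, in the authors' deposited table. Ptgs2, the inducible cyclooxygenase, fell by 3.53 ± 1.00 (adjusted p = 0.029), a fold of 11.5, while its constitutive relative Ptgs1 stood at 0.64 ± 0.25 (adjusted p = 0.095) according to the authors' deposited table. Tslp was the only called member of 14 tested cytokines (7.14%), and Ptgs2 of 13 tested prostaglandin genes (7.69%), against 3.61% of all genes. The interleukin gene Il1b stood at -2.57 ± 0.74 (p = 5.5e-04) and the neutrophil-attracting chemokine Cxcl2 at -4.50 ± 1.11 (p = 5.4e-05) in the authors' deposited table. Both were removed by the authors' filter on low counts and have no adjusted p as deposited. Of 13 tested chemokine genes 0 were called by DESeq2, and 2 had an unadjusted p under 0.05 in the authors' deposited table. Their median was 0.30, with 8 positive and 5 negative, and -0.01 over all 40 members with a fold change. Ccl6 stood at 1.80 ± 0.75 (adjusted p = 0.13). The receptors Ccr6 and Ccr4, without an adjusted p, stood at 1.58 ± 0.65 and 1.36 ± 0.60, by the authors' deposited table. Interferon-induced genes gave 0 calls of 33 with DESeq2, 1 with an unadjusted p under 0.05 and a median of -0.03, and Cxcl9 stood at -0.28 ± 0.37 (adjusted p = 0.70), per the authors' deposited table. Genes of antigen presentation gave 0 calls of 23 with DESeq2, 2 with an unadjusted p under 0.05 and a median of 0.25 in the authors' deposited table.

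Nearly all genes of cell division had negative fold changes, and few of them passed the test. Of 32 tested genes of mitosis 31 had negative fold changes, with a median of -1.04. By DESeq2 28 had an unadjusted p under 0.05 and 4 fell, 12.5% against 2.29% of all genes, in the authors' deposited table. Birc5, survivin, fell by 1.31 ± 0.38 (adjusted p = 0.030) and the ubiquitin-conjugating enzyme Ube2c by 1.40 ± 0.43 (adjusted p = 0.042) by the authors' deposited table. The spindle motor Kif11 fell by 1.02 ± 0.32 (adjusted p = 0.044) and cyclin B2, Ccnb2, by 1.21 ± 0.39 (adjusted p = 0.048) according to the authors' deposited table. The proliferation marker Mki67 stood at -0.37 ± 0.29 (adjusted p = 0.44) per the authors' deposited table. All 31 tested DNA replication genes had negative fold changes, with a median of -0.80, and Rrm1, the large subunit of ribonucleotide reductase, fell by 0.90 ± 0.26 (adjusted p = 0.029) by the authors' deposited table. Pold2, a subunit of DNA polymerase delta outside that list, fell by 1.60 ± 0.35 (adjusted p = 0.0036) according to the authors' deposited table. Centred on the median, or without the authors' filter, 1 of the 32 mitosis genes was called.

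Replication-dependent histone genes, which are transcribed in S phase, had negative fold changes throughout. All 50 tested members had negative fold changes, also with centring and with the length trend removed, and 10 fell, 20% of those tested against 2.29% of all genes, with a median of -0.96 in the authors' deposited table. Hist1h1a, a linker histone, fell by 1.52 ± 0.36 (adjusted p = 0.0074) and Hist1h1b stood at -1.26 ± 0.32 (adjusted p = 0.016) per the authors' deposited table. The core histones Hist1h4d and Hist1h2bc fell by 1.14 ± 0.29 (adjusted p = 0.016) and 0.92 ± 0.26 (adjusted p = 0.026) by the authors' deposited table. Their promoters differ from those of Lce1 genes: CCAAT, searched on both strands over 250 bases, occurs in 38 of 46 histone promoters found (82.6%) and in 0 of 13 Lce1 promoters, against 33.8% of all promoters. For 23 of the 50 genes at least 50% of their 50-base stretches occur in other genes, so single histone genes are uncertain. Hist1h2bq and Hist1h2br, outside that list, carry identical values and count as 1 call. With the length trend described below removed, 2 of the 50 were called, and 5 with centring or without the filter.

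**Figure D3:**
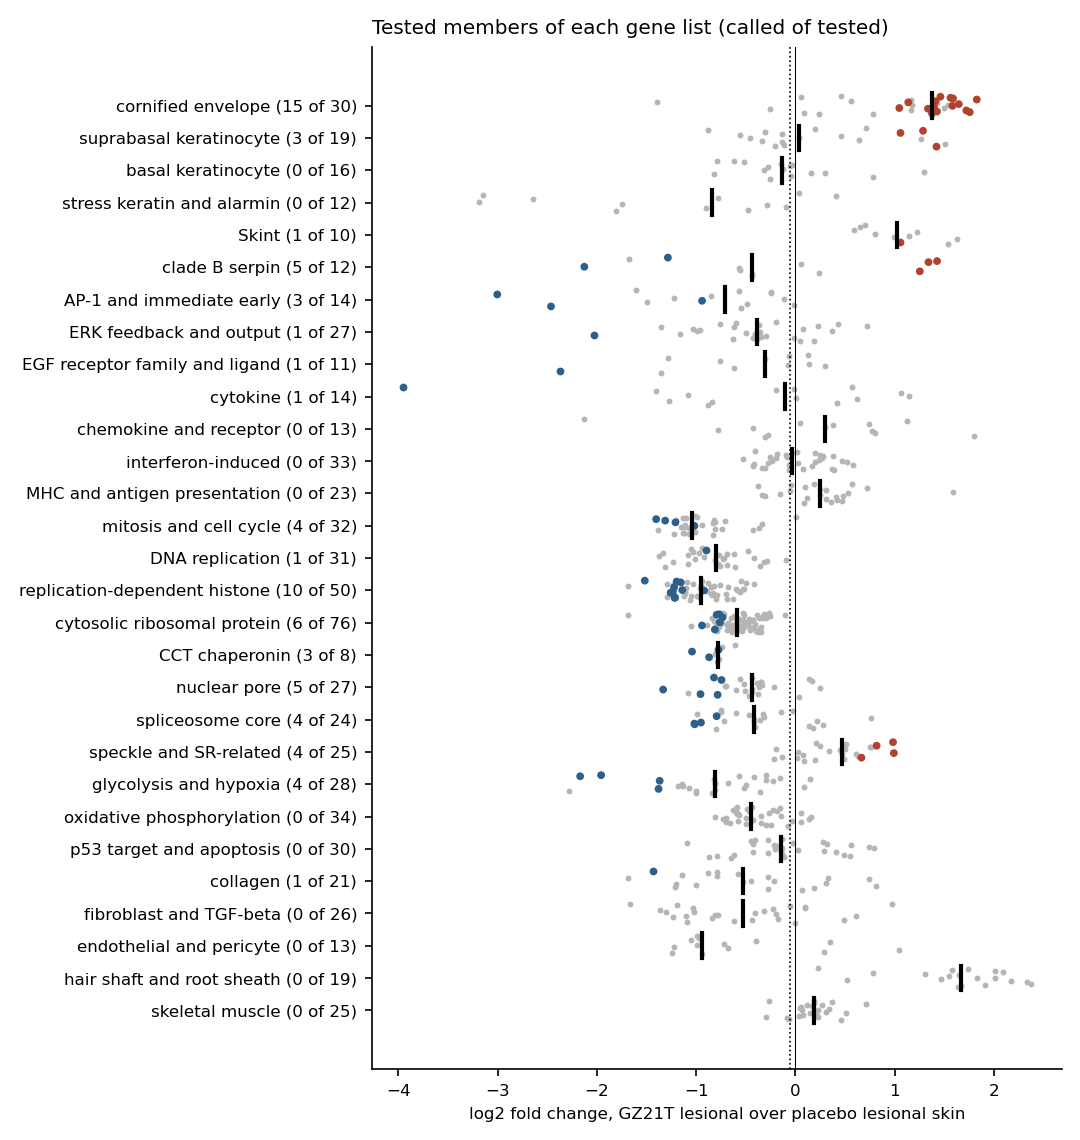
Log2 fold change of GZ21T over placebo lesional skin (horizontal) for the tested members of each gene list drawn, each point 1 gene, with called genes in colour and the median as a black bar. The dotted line is the median of all genes tested, -0.06. Cornified envelope genes have 15 of 30 called at a median of 1.38, and histones 10 of 50 at -0.96.

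Genes of translation and RNA processing gave smaller fold changes. All 76 tested cytosolic ribosomal protein genes had negative fold changes, with a median of -0.59 (-0.33 with the length trend removed). Of the 76, 6 fell, 7.89% against 2.29% of all genes, in the authors' deposited table. Rps20 fell by 0.73 ± 0.22 (adjusted p = 0.041) and Rpl13 by 0.79 ± 0.24 (adjusted p = 0.042) according to the authors' deposited table. These 6 calls ended with centring, without the filter, and with the length trend removed, where 71 of the 76 stayed negative; 19 of the 76 share at least 50% of their 50-base stretches with other genes. In lists chosen after their values were seen, 3 of 8 subunits of the CCT chaperonin, which folds actin and tubulin, fell, led by Tcp1 at -1.04 ± 0.29 (adjusted p = 0.028) per the authors' deposited table. Of 27 nuclear pore genes 5 fell, led by Ndc1 at -1.33 ± 0.32 (adjusted p = 0.0081), and of 12 eIF3 subunits 2 fell, led by Eif3f at -1.03 ± 0.25 (adjusted p = 0.011), by the authors' deposited table. Of 24 core spliceosome genes 4 fell, with Prpf8 at -1.02 ± 0.26 (adjusted p = 0.016), whereas of 25 genes of nuclear speckles and SR-related proteins 4 rose and 0 fell, with Arglu1 at 0.98 ± 0.28 (adjusted p = 0.031), according to the authors' deposited table. Over all genes 3.61% were called, against 37.5% of CCT, 18.5% of nuclear pore, 16.7% of eIF3, 16.7% of spliceosome and 16% of speckle genes. Without the authors' filter the spliceosome list had 1 call, the speckle list 1, the nuclear pore list 2 and CCT 2. Slc7a5, the large neutral amino acid transporter LAT1, fell by 1.48 ± 0.32 (adjusted p = 0.0036) per the authors' deposited table.

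Several genes of the response to low oxygen fell. Egln3, the prolyl hydroxylase PHD3 that is itself induced by hypoxia, fell by 2.17 ± 0.40 on the log2 scale (adjusted p = 6.4e-04), a fold of 4.5, in the authors' deposited table. The gene occupies chromosome 12, 54178981 to 54203860, minus strand, of GRCm38. The 28 tested glycolysis and hypoxia genes had a median of -0.81 in the authors' deposited table. Of them 4 fell, 14.3% against 2.29% of all genes, and 0 rose. The others were the stress gene Ndrg1 at -1.96 ± 0.55 (adjusted p = 0.026), the oxidoreductase Ero1l at -1.37 ± 0.35 (adjusted p = 0.016) and the phosphofructokinase Pfkl at -1.38 ± 0.39 (adjusted p = 0.029) by the authors' deposited table. Hif1a, the oxygen-regulated subunit of the hypoxia factor, fell by 1.48 ± 0.43 (adjusted p = 0.032) according to the authors' deposited table, a call that ended without the filter. Adrenomedullin, Adm, at -5.16 ± 1.22 (p = 2.4e-05) and carbonic anhydrase 9, Car9, at -3.17 ± 0.79 (p = 5.9e-05) were removed by the authors' filter and have no adjusted p in the authors' deposited table. Without the filter both were called, which made 6 of the list. The glucose transporter Slc2a1 at -0.68 ± 0.38 (adjusted p = 0.27), Ldha at -0.81 ± 0.55 (adjusted p = 0.37) and Vegfa at -0.52 ± 0.38 (adjusted p = 0.41) did not pass in the authors' deposited table. Oxidative phosphorylation genes gave 0 calls of 34 with DESeq2 and 1 with an unadjusted p under 0.05 in the authors' deposited table.

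Both tested metallothionein genes, which encode metal-binding stress proteins, fell, Mt1 by 1.42 ± 0.32 (adjusted p = 0.0055) and Mt2 by 1.28 ± 0.34 (adjusted p = 0.019), per the authors' deposited table. That list was chosen after its values were seen, and 2.29% of all genes were called lower. Mt4 at 0.78 ± 0.68 and Mt3 at -0.48 ± 1.73 have no adjusted p there. Of 27 NRF2 target genes 1 rose and 1 fell, 7.41% called against 3.61% of all genes. These were G6pdx, the entry enzyme of the pentose phosphate pathway, at 0.42 ± 0.13 (adjusted p = 0.041), and thioredoxin, Txn1, at -1.48 ± 0.45 (adjusted p = 0.041), by the authors' deposited table. Nqo1 and Hmox1, classical members, stood at -1.36 ± 0.62 (adjusted p = 0.16) and -0.41 ± 0.32 (adjusted p = 0.45) according to the authors' deposited table. Of 30 p53 target and apoptosis genes DESeq2 called 0, and 10 had an unadjusted p under 0.05, in the authors' deposited table. Trp53 stood at -0.43 ± 0.30 (adjusted p = 0.40) and Cdkn1a at -0.62 ± 0.31 (adjusted p = 0.20) per the authors' deposited table. Of 23 genes of nucleotide excision repair, which removes the photoproducts of ultraviolet light, 2 fell, 8.70% against 2.29% of all genes. Rpa1 fell by 0.70 ± 0.19 (adjusted p = 0.021) and Rad23b by 0.70 ± 0.22 (adjusted p = 0.047) by the authors' deposited table. The damage sensor Xpc stood at 0.66 ± 0.24 (adjusted p = 0.079) according to the authors' deposited table. Akt1 fell by 0.51 ± 0.15 (adjusted p = 0.036) and was the called member of 31 genes of PI3K, AKT and mTOR signalling, 3.23% against 3.61% of all genes, with Mtor at 0.32 ± 0.15 (adjusted p = 0.17), per the authors' deposited table. Rb1cc1, a subunit of the complex that starts autophagy, rose by 0.83 ± 0.21 (adjusted p = 0.016), the called member of 29 autophagy and lysosome genes (3.45%) in the authors' deposited table. The calls of Txn1, G6pdx, Rad23b and Akt1 ended without the filter, and that of Mt2 with the length trend removed. Of 22 WNT genes DESeq2 called 0 and 6 had an unadjusted p under 0.05, and of 12 Notch genes it called 0 with 2 under 0.05, in the authors' deposited table.

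Matrix genes gave single calls. Col12a1, a collagen that binds to fibrils, fell by 1.44 ± 0.38 (adjusted p = 0.018) by the authors' deposited table. It was the called member of 21 collagens, 4.76% against 3.61% of all genes, while Col1a1 stood at -0.89 ± 0.90 (adjusted p = 0.59) there. The protease Adamts1 fell by 1.86 ± 0.48 (adjusted p = 0.016) and the hyaluronan synthase Has3, the main one of keratinocytes, by 2.27 ± 0.65 (adjusted p = 0.029), according to the authors' deposited table. The collagenase Mmp13 stood at -2.66 ± 1.16 (adjusted p = 0.14) per the authors' deposited table. Pi15, a peptidase inhibitor, fell by 2.08 ± 0.45 (adjusted p = 0.0030) by the authors' deposited table.

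Genes of red blood cells fell, and other cell types gave no calls. The haemoglobin genes Hba-a1 and Hbb-b1 fell, with -5.33 ± 1.45 (adjusted p = 0.023) and -5.65 ± 1.60 (adjusted p = 0.028) according to the authors' deposited table. Hba-a2 was called lower too, but its log2 fold change was over 15 in size and is not given. Such a value can arise where a group has no reads, which cannot be checked without values per library. For both alpha genes over 50% of the 50-base stretches occur in other genes. The marker Alas2 stood at -4.45 ± 1.61 (p = 0.0058) without an adjusted p in the authors' deposited table. Endothelial genes gave 0 calls of 13 with DESeq2, 0 with an unadjusted p under 0.05 and a median of -0.94, with Pecam1 at -0.94 ± 0.94 (adjusted p = 0.58), per the authors' deposited table. Red cell genes and the endothelial median thus lay on the lower side, as did the hypoxia genes, Tslp and Ptgs2, and their part in those results was not tested. In bulk skin, fewer cells of a type and less RNA per cell cannot be told apart.

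The markers of immune cells were tested in small numbers. Of 17 macrophage genes DESeq2 called 0 with 1 at an unadjusted p under 0.05, and of 5 T and NK cell genes 0 with 1, in the authors' deposited table. Langerhans and dendritic cell genes gave 0 of 8 with 3 under 0.05, and neutrophil genes 0 of 5 with 3, by DESeq2 in the authors' deposited table. Of the 8 Langerhans and dendritic cell genes 6 had positive and 2 negative fold changes, with a median of 0.45. Cd207, langerin, stood at 1.23 ± 0.58 (adjusted p = 0.18) and Fscn1, of mature dendritic cells, at -1.12 ± 0.39 (adjusted p = 0.071) per the authors' deposited table. Among macrophage genes Csf1r stood at 0.76 ± 0.52 (adjusted p = 0.39) and Cd14, with the smallest p of them, at -1.87 ± 0.72 (adjusted p = 0.099), by the authors' deposited table. All 5 tested T and NK cell genes had positive fold changes, with a median of 0.80. Among them Cd3e of T cells stood at 0.82 ± 0.45 (adjusted p = 0.26) per the authors' deposited table. Among the 5 tested neutrophil genes 2 had positive and 3 negative fold changes, with a median of -1.97, by the authors' deposited table. The receptor Il1r2, with the smallest p of them, stood at 1.15 ± 0.42 (adjusted p = 0.086). S100a8 and S100a9, also made by keratinocytes, had the values above. The receptor Cxcr2 stood at 0.30 ± 0.45 (adjusted p = 0.75), according to the authors' deposited table. With the length trend removed 1 of the list was called, higher. The neutrophil markers Csf3r at -2.11 ± 1.08 (p = 0.050) and Trem1 at -4.33 ± 2.10 (p = 0.039) have no adjusted p in the authors' deposited table. Their part in the lower inflammatory genes was not tested. Fibroblast genes gave 0 of 26 with 3 at an unadjusted p under 0.05 by DESeq2, and Pdgfra stood at -0.17 ± 1.11 (adjusted p = 0.96), per the authors' deposited table.

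Hair and muscle genes were read for what the pieces of skin contained. All 19 tested genes of the hair shaft and root sheath had positive fold changes, with a median of 1.67, but their median SE was 1.48, DESeq2 called 0 and 2 had an unadjusted p under 0.05, in the authors' deposited table. Tchh, which encodes trichohyalin of the inner root sheath, had a value of 2.01 ± 0.87 (adjusted p = 0.14) by the authors' deposited table. Skeletal muscle genes gave 0 calls of 25 and 0 with an unadjusted p under 0.05 by DESeq2, with a median of 0.18, in the authors' deposited table. In the authors' deposited table Hoxc4, a gene of body position, rose by 1.69 ± 0.48 (adjusted p = 0.028). Hoxc4 was the called member of 13 such genes, 7.69% against 3.61% of all genes. Whether the hair or body site of the samples had a part in the higher differentiation genes was not tested. The authors' deposited table had the clock gene Cry1 lower by 1.42 ± 0.39 (adjusted p = 0.024). Cry1 was the called member of 18 clock genes, 5.56% against 3.61% of all genes.

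Fold changes also moved with the length of the transcript. Over 10433 tested genes with an annotated transcript, Spearman's rho across genes was 0.196, a description over genes that share the same 6 libraries. The median log2 fold change went from -0.27 in the first of 10 equal bins, with the shortest transcripts, to 0.11 in the last, by the authors' deposited table. Genes called higher had a median transcript of 3983.5 bases and those called lower one of 2938 bases, against 3570 bases for all tested. The called Lce1 genes went against this relation, being short and higher, while histone and ribosomal protein genes were short and lower and VPS13 genes long and higher, with fold changes larger than the trend at their length. With the trend over length removed, 290 genes were called, 164 higher and 126 lower, 218 of them also called as deposited. Cornified envelope genes then had 16 higher, histones 2 lower and ribosomal proteins 0. Vps13a, Vps13b and Vps13d, lipid transfer proteins with very long transcripts, rose by 0.59 ± 0.18, 0.62 ± 0.19 and 0.77 ± 0.23 in the authors' deposited table (adjusted p = 0.042, 0.042 and 0.037), and none of the 3 was called after removal. What gave the relation with length was not tested.

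**Figure D4:**
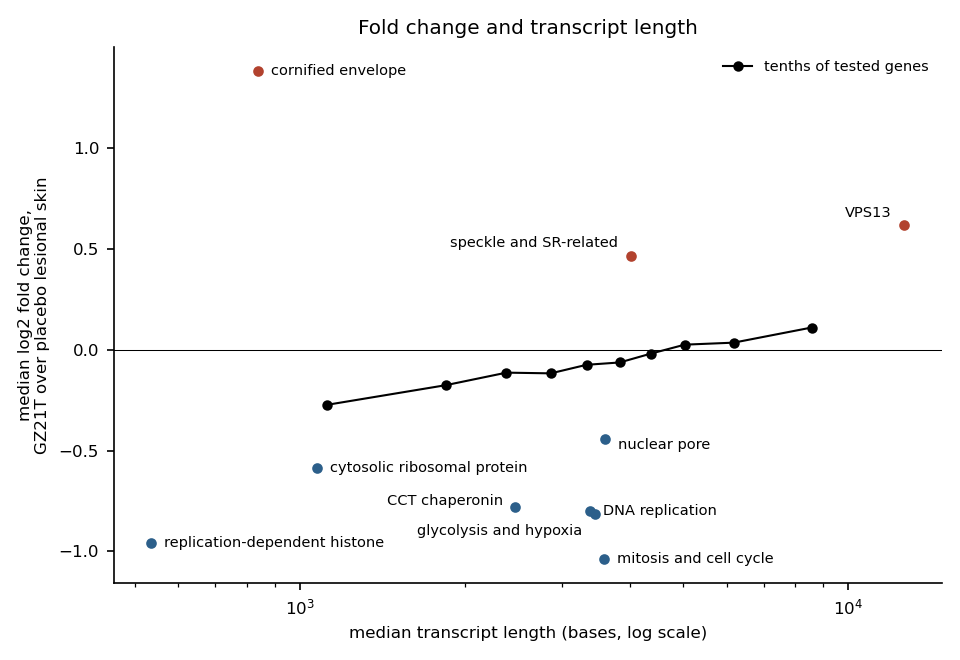
Median transcript length in bases (horizontal, log scale) against the median log2 fold change of GZ21T over placebo lesional skin (vertical) for the tested genes in 10 bins of equal size, in black, and for 10 gene lists. The bins run from -0.27 for the shortest to 0.11 for the longest transcripts, and cornified envelope genes lie above that line at 1.38.

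The same genes were then read in the other tables. Lesional over non-UV skin shares the 3 placebo lesional libraries with the GZ21T comparison, with opposite sign, so a fold change in both is no repeat of a result and the values are set side by side only. In it 18.3% of 15201 tested genes were called. Its reference is called back skin in the headers and was taken as the non-UV group by elimination, so exposure and body site cannot be told apart. That table was deposited under a name that gives perilesional against lesional skin, while its column headers give lesional over back skin. The headers were followed, and every value given for lesional over non-UV skin rests on them. Tslp stood at 4.71 ± 0.90 when lesional was set over non-UV skin and at 0.02 ± 0.92 when non-lesional was, in the authors' deposited tables. Egln3 stood at 2.81 ± 0.40 and 0.98 ± 0.40, and Dsc2 at 3.70 ± 0.57 and 0.25 ± 0.59, in the same 2 of the authors' deposited tables. Epgn, by contrast, stood at 0.66 ± 0.46 and -0.76 ± 0.47 there, and Fosb at -1.57 ± 0.88 and -3.98 ± 0.90, in the authors' deposited tables. The 11 Lce1 genes that rose under GZ21T lay between -0.84 and 0.15 in lesional over non-UV skin and between 0.88 and 1.55 in non-lesional over non-UV skin in the authors' deposited tables. Lor stood at -1.61 ± 0.49 and -0.11 ± 0.49 in these comparisons of the authors' deposited tables. Krt16, which did not differ detectably under GZ21T, stood at 4.15 ± 0.45 and 3.70 ± 0.45 there by the authors' deposited tables.

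Non-lesional over non-UV skin shares no library with the GZ21T comparison, and 235 of its 14124 tested genes (1.66%) were called. In all 13 genes were called in both, 3.31% of the 393 and 5.53% of the 235. Both were higher for 7, namely Lce1e, Lce1f, Lce1g, Lce1h, Serpinb3b, the cornified layer nuclease Dnase1l2 and Tmem229b, and both lower for Fosb and Hba-a2. Has3, Pi15 and Slit1 were lower under GZ21T and higher in non-lesional skin, and Atrnl1 was higher under GZ21T at 0.67 ± 0.19 and lower in non-lesional skin at -0.72 ± 0.19 in the authors' deposited tables. For Serpinb3b the value was 0.96 ± 0.26 with non-lesional set over non-UV skin in the authors' deposited table.

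**Figure D5:**
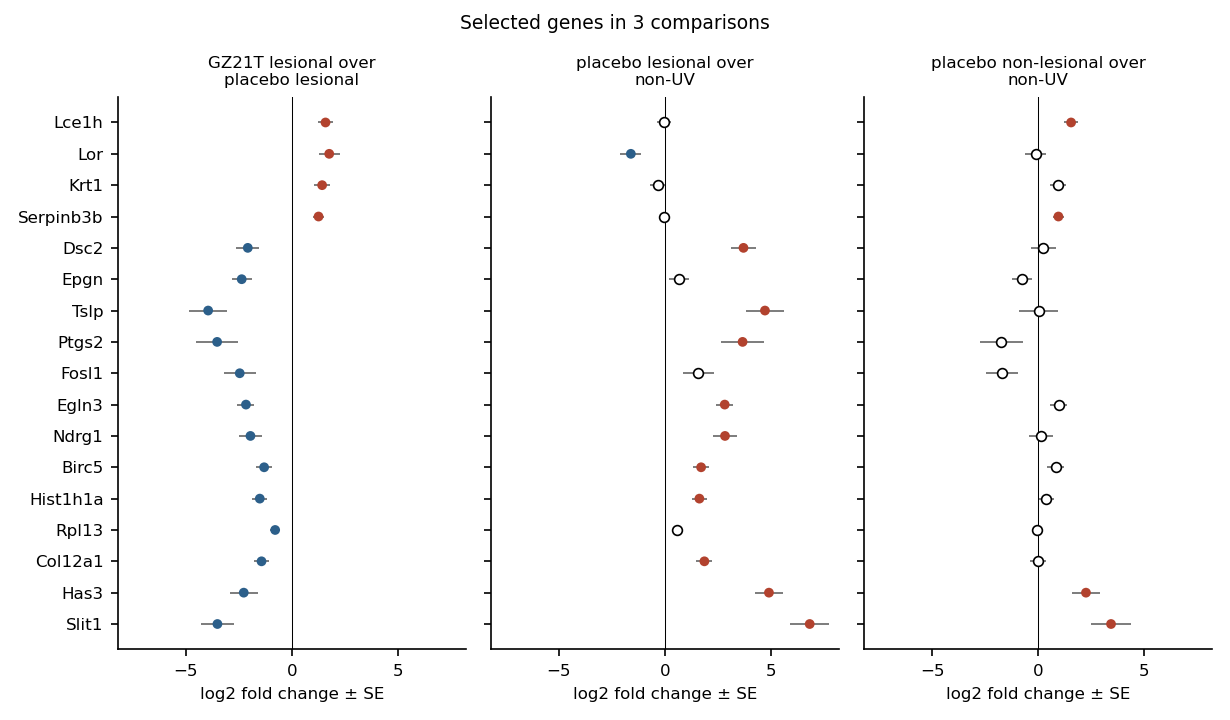
Log2 fold change with its SE for 17 genes in GZ21T over placebo lesional skin, placebo lesional over non-UV skin and placebo non-lesional over non-UV skin. Filled points passed an adjusted p under 0.05 and open points did not, and the first 2 panels share the placebo lesional libraries with opposite sign. Tslp is at -3.95, 4.71 and 0.02 from left to right, and Lce1h at 1.58, -0.04 and 1.55.

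The call threshold separates genes that hardly differ. Just inside it lie Pcdhgb7, Ccnd3 and Cd276, the last with an adjusted p of 0.0496, and just outside Acat2 with 0.0503, Ercc6l and Ylpm1 in the authors' deposited table. Pcdhgb7 is 1 of 3 gamma protocadherins of 19 tested that rose, 15.8% against 1.31% of all genes. That list was chosen after its values were seen. Pcdhga7 stood at 0.82 ± 0.21 (adjusted p = 0.016) and Pcdhga6 at 0.79 ± 0.23 (adjusted p = 0.035) according to the authors' deposited table. Of the 19, 14 had positive and 5 negative fold changes. Without the authors' filter 1 of the list was called. The gamma protocadherins share their last exons, so reads cannot be assigned to each with certainty.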

How the data were processed

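RNA from skin of SKH1 mice was purified with RNeasy kits and made into TruSeq Stranded Total RNA libraries, per the labels' protocols. The submitters' processing notes name Trim Galore, GRCm38 (mm10) and DESeq2. The sources used here do not name the aligner, counter, annotation, versions or design formula. Per the file headers, the authors deposited for each comparison a log2 fold change, a Wald statistic, which is a score with no fixed range, a p-value and an adjusted p-value. The deposited tables hold 0 columns of values per library, so depth is unknown.

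Signs were turned so that positive means higher under GZ21T, and the SE is the log2 fold change divided by the Wald statistic. Tested genes are those with an adjusted p as deposited, and called genes those with an adjusted p under 0.05 in the authors' DESeq2 fit. No model was refitted. Named genes were, per direction, the 12 with the smallest p and the 6 with the largest fold change, up to 4 per list by p, and genes picked for their known roles. The members and the 55 lists were chosen with earlier results of these data known. A further 14 lists, for desmosomes, Skint, serpins, metallothioneins, nuclear pores, CCT, eIF3, spliceosome, speckles, VPS13, protocadherins, HIF, Slit and red cells, were chosen after their values were seen. So were ATAAAA and the removal of a length trend, taken as the median of each of 20 length bins of equal size.

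GENCODE release 21 on GRCm38 matched 22683 symbols (94.4%) and gave positions, lengths and 50-base stretches shared between genes. Promoters of 250 bases came from RefSeq on GRCm38.p6. Python 3.11.15, numpy 2.4.6, pandas 2.3.3, scipy 1.17.1, statsmodels 0.14.6 and matplotlib 3.10.9 were used, and the adjustment and the alternatives were tested on simulated data. Some results are not reported here.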

Additional observations from a re-analysis of the deposited data

How the results depend on the processing

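Of the alternatives to the 393 genes called, an adjusted p under 0.1 gave 1092 (390 higher, 702 lower), one under 0.01 gave 38 (15 and 23), and a log2 fold change of at least 1 in size gave 189 (73 and 116). Adjustment over all 18800 genes with a p-value, without the authors' filter on low counts, gave 209 (82 and 127), of which 195 were among the 393. With the null centre and spread taken from the genes DESeq2's statistics gave 0, against 2498 with an unadjusted p under 0.05. Centring on the median gave 343 (285 shared) and removal of the length trend, chosen after seeing the data, 290 (218 shared). Genes called also in non-lesional over non-UV skin numbered 35 at 0.1. Of the 99 called genes among those named by the rule, 35 were lost without the filter, 14 with centring and 29 of the 97 with an annotated length once the length trend was removed, and 0 changed sign in these. No paired analysis was possible because the deposited tables hold no values per library, and for the same reason leaving out single libraries was not run.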

Other observations

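The authors' filter on low counts left 306 genes with an unadjusted p under 0.05 without an adjusted p, and 14 of these were called by DESeq2's p-values adjusted over all genes. Several of the 14, all chosen here after their values were seen, are known to respond to low oxygen. Placental growth factor, Pgf, stood at -5.11 ± 1.39 (p = 2.4e-04) and the lipid droplet protein Hilpda at -1.83 ± 0.51 (p = 3.1e-04) in the authors' deposited table, on the same side as Adm and Car9. Asf1b, a histone chaperone of replication, stood at -2.55 ± 0.57 (p = 8.3e-06 by DESeq2) in the authors' deposited table. On the higher side lay Kcnip3, a calcium-binding repressor, at 2.02 ± 0.45 (p = 8.0e-06), and Oas1e at 1.71 ± 0.49 (p = 4.8e-04), in the authors' deposited table. The smallest p of the 14 belongs to the read-through gene Jmjd7-pla2g4b, at 8.26 ± 1.53 (p = 6.3e-08) in the authors' deposited table, which overlaps its parent genes, so its reads cannot be assigned with certainty. The level of these genes in each library is unknown.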
